A study of Rattus norvegicus with 30 samples.

Results

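The genes described here are 9 of the 26404 Ensembl identifiers in the count tables of rat brain mRNA after traumatic brain injury (TBI). They were chosen by their measured counts in these libraries, for the largest rises in the perilesional cortex or the thalamus and for expression at 2 separate levels that followed the injury. Their cortical and thalamic differences between TBI and sham therefore describe how they were chosen, and no test was run on them. The choice by size of rise names the cortex and thalamus alone, while that by separate levels names no area. The hippocampal difference was tested, but its test is not shown to be free of the choice, since hippocampal levels of genes of this kind were known by then. The tables list the identifiers without names, and none could be paired with a gene symbol, a position or a sequence, so the genes are called by their identifiers and their function is not described.

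Adult male Sprague-Dawley rats received lateral fluid percussion, in which a pulse of fluid strikes the intact dura through an opening in the skull, or a sham operation with the same anaesthesia and surgery but no pulse. There were 5 sham-operated rats (rats 1 to 5) and 5 rats with TBI (rats 6 to 10), and tissue was taken 3 months later. The perilesional cortex, the thalamus and the dorsal hippocampus, dissected as the dentate gyrus with the adjoining part of CA3, came from the same 10 rats, which gave 30 libraries of poly(A) RNA. The study's methods give a different sequencer and more cycles for the thalamus than for the cortex and hippocampus, so a difference in level between the thalamus and another area cannot be told apart from sequencing.

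Lateral fluid percussion damages the cortex under the opening directly, and glial cells and macrophages remain activated around the lesion long after the impact. The thalamus is joined to the injured cortex by long axons and degenerates later, and the dentate gyrus loses some of its interneurons. In pieces of tissue, a change in the number of cells of a type and a change in RNA per cell cannot be told apart. The labelled tissues could not be checked against marker genes, since the identifiers could not be paired with gene names here.

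The libraries held between 21992859 and 31799879 counts. Levels are given as CPM, the reads of a gene scaled to a common library size, after TMM scaling within a brain area. At these depths the values of genes with a mean under 1 CPM rest on few reads, and the floor of 3 counts is named where it is used. Several libraries stood apart. In the hippocampus the 10 most counted genes took 44.1% and 40.9% of the counts of the libraries labelled sham rats 4 and 5, against 9.95% to 16.4% in the other 8. The hippocampal libraries labelled sham rat 3 and TBI rat 8 carried levels on the other group's side of the widest gap at 5 of the 9 genes, which was already known of genes of this kind when the 9 were chosen. The thalamic library of TBI rat 6 lay nearest to the sham libraries. The labels are kept, and the main values are also given without these libraries.

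ENSRNOG00000045772 and ENSRNOG00000028896 kept close to one ratio in these counts. In each of the 30 libraries the second identifier had between 1.02 and 1.12 times the reads of the first, with a median of 1.05, and it was the higher of the pair in 30 of 30. The difference was between 1 and 379 reads. The ratio was not quite the same in every area, at 1.03 to 1.12 in the cortex, 1.03 to 1.08 in the thalamus and 1.02 to 1.05 in the hippocampus. Over all libraries the totals were 50573 and 52975 reads, and log2 counts correlated with r = 0.9999 over the 30 libraries, which share rats and depth. A chi-square of the reads of both identifiers over the libraries was 0.172 per degree of freedom, where independent reads with one fixed ratio would give about 1, so the pair varied together more closely than separate reads would. Among 17199 genes compared, no other came below 4.12 with either identifier. For the other 7 genes the lowest value against any gene was between 1.03 and 6.16. The pair is therefore not treated as a pair of independent observations, and counts of genes below include both identifiers. Reads shared in part by the other 7 genes were not examined. Whether the loci overlap or are copies could not be looked up.

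**Figure D1:**
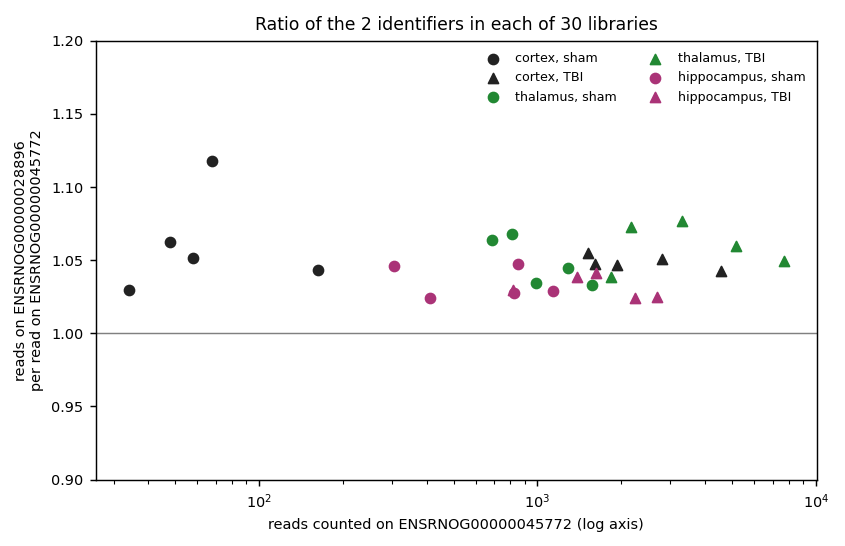
Reads on ENSRNOG00000028896 per read on ENSRNOG00000045772 (vertical axis, ratio) against the reads on ENSRNOG00000045772 (horizontal axis, log scale), with 1 point per library coloured by brain area. All 30 points lie between 1.02 and 1.12.

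In the perilesional cortex the levels of 8 of the 9 genes were higher in every TBI library than in every sham library, an arrangement that 10.2% of the 17185 genes tested there also had. For the same 8, the widest gap between neighbouring libraries on the log2 scale lay between the sham and the TBI libraries, which held for 3.51% of all genes. The exception in both counts was ENSRNOG00000016179. In the cortex the description of 2 levels following injury thus held for 8 genes, and since these values chose them, nothing is read from the counts.

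The largest cortical difference was that of ENSRNOG00000045772. In sham rats 1 to 5 its CPM were 2.38, 2.32, 5.58, 1.30 and 2.38, and those of TBI rats 6 to 10 were 127, 108, 61.0, 50.5 and 60.0. The mean was 2.79 ± 1.63 (SD, n = 5) in sham and 81.5 ± 34.2 (SD, n = 5) in TBI, a log2 fold change of 4.84 (SE 0.45). The lowest TBI library lay 9.05 times above the highest sham library, that of rat 3. ENSRNOG00000028896 followed it from 2.96 ± 1.69 (SD, n = 5) to 85.3 ± 35.6 CPM (SD, n = 5). Within TBI, rats 6 and 7 stood above the other 3 rats at this pair.

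ENSRNOG00000033879 was close to absent from the sham cortex. Its counts were 3, 3, 6, 1 and 3 reads in the sham rats in order of number, and 183, 72, 87, 91 and 105 reads in TBI rats 6 to 10. That is 0.124 ± 0.0612 CPM (SD, n = 5) in sham against 3.51 ± 0.947 CPM (SD, n = 5) in TBI, with a log2 fold change of 4.78 (SE 0.30). The groups did not overlap, with the lowest TBI library 13.5 times above the highest sham library, although the sham levels rest on a handful of reads.

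ENSRNOG00000024000 had 0.694, 0.601, 0.582, 0.727 and 0.736 CPM in the cortex of the 5 sham rats in order, and 6.04, 4.33, 5.47, 4.25 and 5.56 CPM in TBI rats 6 to 10. Both groups were tight, with SDs of 0.0715 and 0.797 CPM (n = 5 each), and its log2 fold change was 2.94 (SE 0.17). ENSRNOG00000007457 lay between 5.40 and 11.7 CPM in the sham cortex and between 45.2 and 74.9 CPM in the TBI cortex, a log2 fold change of 2.74 (SE 0.22). The other 3 genes had narrower gaps between the groups. ENSRNOG00000038960 went from 3.41 ± 0.767 to 15.9 ± 3.61 CPM (SD, n = 5 each, log2 fold change 2.21, SE 0.18). For ENSRNOG00000013668 the cortical means were 5.99 ± 0.823 and 19.8 ± 2.27 CPM (SD, n = 5 each, log2 fold change 1.72, SE 0.11). For ENSRNOG00000034174 they were 0.703 ± 0.0733 and 1.97 ± 0.357 CPM (SD, n = 5 each, log2 fold change 1.48, SE 0.19), and the lowest TBI library lay 1.83 times above the highest sham library.

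ENSRNOG00000016179 had one level in the cortex. It was counted at 0.743, 0.401, 0.514, 0.421 and 0.350 CPM in sham rats 1 to 5, and at 0.447, 0.502, 0.443, 0.504 and 0.435 CPM in TBI rats 6 to 10. Every TBI value lay inside the sham range, and the log2 fold change was -0.04 (SE 0.25). By rank of rise among the 17185 genes it was 9175, while the other 8 were between 1 and 296.

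**Figure D2:**
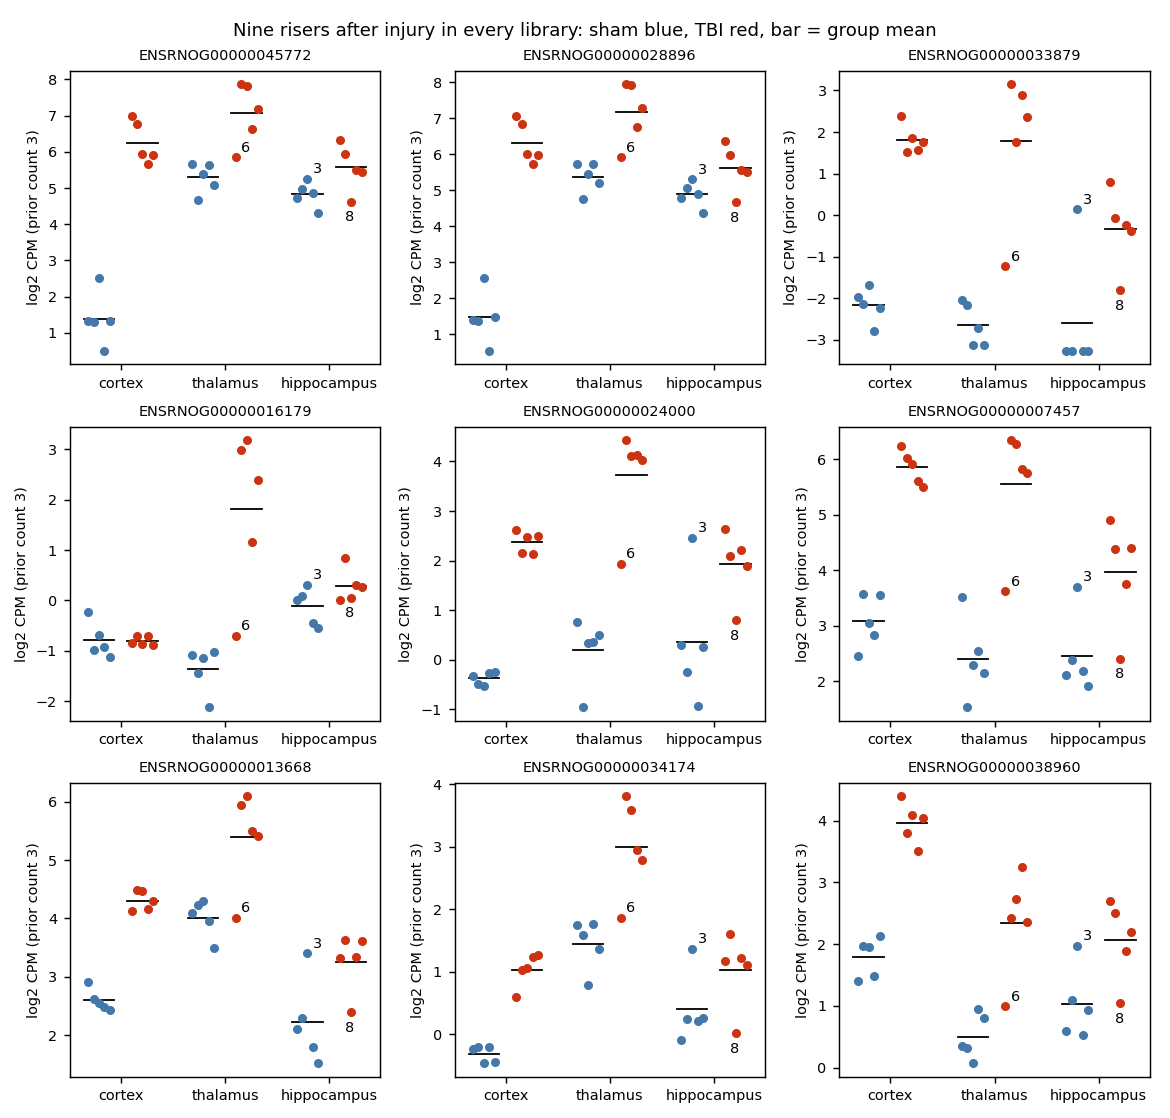
log2 CPM (prior count 3, vertical axis) of the 9 genes in every library of the cortex, thalamus and hippocampus, with sham-operated rats in blue, TBI rats in red, bars at the group means and points within a group set out by rat number. The red points lie above the blue ones in the cortex except for ENSRNOG00000016179, thalamic TBI rat 6 lies near the sham libraries, and hippocampal sham rat 3 and TBI rat 8 lie on the other group's side at several genes.

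In the thalamus, 8 of the 9 genes were higher in every TBI library than in every sham library, against 2.75% of the 16605 genes tested, and here the exception was ENSRNOG00000013668. The widest gap parted sham from TBI at none of the 9, which held for 0.0903% of all genes. At 9 of 9 it instead had TBI rats 7 to 10 above it and rat 6 below it with the sham libraries, a division found at 2.1% of genes. TBI rat 6 was the lowest TBI library at 9 of 9 genes, while it was lowest at 43.9% of the genes whose mean was higher in TBI. Without it, all 9 genes were free of overlap between the groups, against 8.2% of genes. The log2 fold changes of the 8 genes fitted with all rats were between 1.74 and 4.37 without it and between 1.51 and 4.07 with it. Thalamic values took part in the choice of these genes, and rat 6 was singled out for lying near the sham libraries. Nothing is therefore read from the thalamic counts against their shares. Rat 6 was the highest TBI library at 6 of the 9 in the cortex and at 6 of the 9 in the hippocampus, as it was at 32% and 27.5% of the genes whose mean was higher in TBI.

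ENSRNOG00000016179, which had one level in the cortex, had the largest thalamic log2 fold change of all genes fitted. Its CPM were 0.356, 0.256, 0.340, 0.116 and 0.376 in sham rats 1 to 5 and 0.500, 7.88, 8.98, 2.12 and 5.18 for TBI rats 6 to 10. The log2 fold change was 4.07 (SE 0.66). Rat 6 stood 1.33 times above the highest sham library, and rats 7 to 10 were well above it with a spread of their own, rat 9 being the lowest of the 4.

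ENSRNOG00000024000 and ENSRNOG00000007457 had the next largest log2 fold changes among the genes fitted in the thalamus. ENSRNOG00000024000 was at 1.59, 0.402, 1.15, 1.16 and 1.30 CPM in sham rats 1 to 5 and at 3.72, 21.4, 17.2, 17.3 and 16.2 CPM in TBI rats 6 to 10 (log2 fold change 3.75, SE 0.44). ENSRNOG00000007457 was at 11.3, 2.78, 4.76, 5.73 and 4.30 CPM in sham rats 1 to 5 and at 12.2, 80.8, 76.8, 56.1 and 53.4 CPM in TBI rats 6 to 10 (log2 fold change 3.26, SE 0.49). TBI rat 6 was thus close to sham rat 1, the highest sham library, at the second of these genes and between the groups at the first.

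ENSRNOG00000033879 was not in the thalamic fit, because the filter asks for a minimum CPM, set from the minimum count of 10 at the median library size, in as many libraries as a group holds. The TBI library of rat 6, a deep one at 0.313 CPM, fell short of it. It had 4, 3, 0, 1 and 0 reads in sham rats 1 to 5 and 10, 288, 74, 159 and 114 reads in TBI rats 6 to 10. Its mean CPM were 0.0556 ± 0.0609 in sham and 4.94 ± 3.34 in TBI (SD, n = 5 each), and the groups did not overlap. The ratio of these means was 88.9, above the 17.1 of ENSRNOG00000016179, but it rests on 8 sham reads in all.

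ENSRNOG00000045772 began from a far higher thalamic than cortical sham level. Its CPM were 50.9, 25.1, 42.1, 50.0 and 34.0 in sham rats 1 to 5 and 57.7, 235, 228, 99.5 and 145 for TBI rats 6 to 10, and the log2 fold change was 1.92 (SE 0.34), with 1.94 (SE 0.34) for ENSRNOG00000028896. The lowest TBI library lay 1.13 times above the highest sham library, compared with 9.05 times in the cortex. ENSRNOG00000038960 had thalamic means of 1.34 ± 0.372 and 5.62 ± 2.74 CPM (SD, n = 5 each, log2 fold change 2.06, SE 0.36), and its rat 6 value of 1.88 CPM was next to the highest sham value of 1.82. ENSRNOG00000034174 had thalamic means of 2.70 ± 0.690 and 8.75 ± 4.14 CPM (SD, n = 5 each, log2 fold change 1.69, SE 0.33). The overlapping gene, ENSRNOG00000013668, had 16.1 CPM in TBI rat 6, inside the sham range of 11.1 to 19.7, and 42.5 to 68.1 CPM in the other 4 TBI rats (log2 fold change 1.51, SE 0.30).

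**Figure D3:**
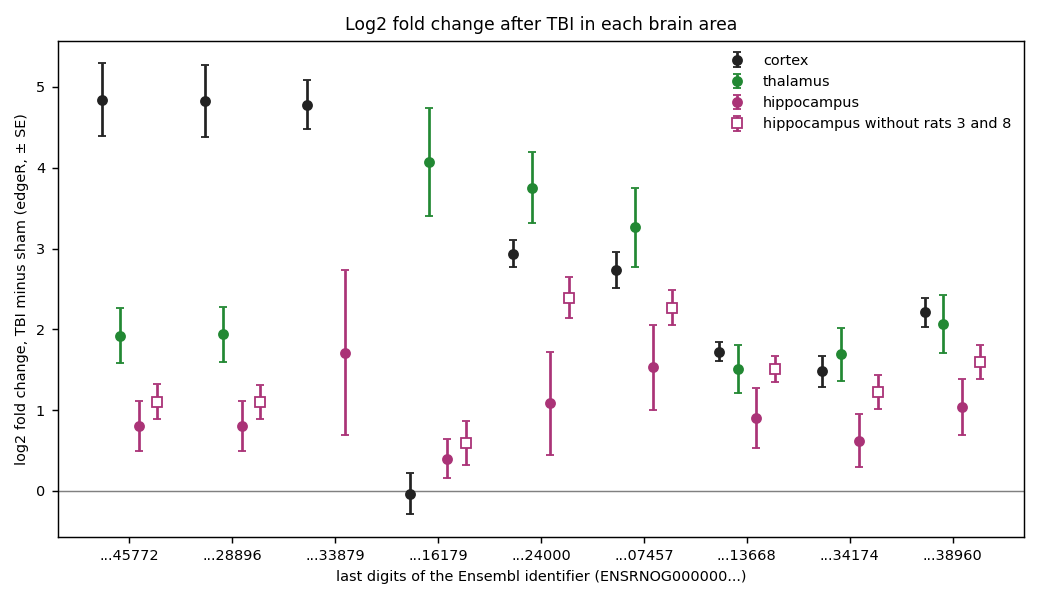
log2 fold change of TBI over sham (edgeR, bars are standard errors, n = 5 rats per group) of the 9 genes in the cortex, thalamus and hippocampus, with the hippocampus also drawn without the libraries labelled sham rat 3 and TBI rat 8. Hippocampal values lie between 0.40 and 1.71 as labelled, ENSRNOG00000016179 is near 0 in the cortex and highest in the thalamus, and points that were not fitted or have a group at 0 reads are left out.

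In the hippocampus as labelled, 0 of the 9 genes passed edgeR's quasi-likelihood test at an adjusted p of 0.05, and 0 of the 16963 genes tested did (0%), the smallest adjusted p of all being 0.480. DESeq2 called 0 of the 8 to which it gave an adjusted p, against 0.0413% of genes, and gave none to ENSRNOG00000033879. The values that follow describe the 9 genes, and nothing is read from them against the shares of all genes, since the choice is not shown to be free of hippocampal levels. The log2 fold changes of all 9 lay above 0, which held for 46.9% of genes, and their median was 0.90 against -0.01 over all genes. At an unadjusted p under 0.05 edgeR placed 5 of the 9 higher in TBI, against 5.22% of genes (8.44% in either direction), and DESeq2 also 5, against 5.15%. The two-sided exact permutation test on log2 CPM placed 4 there, against 4.13%, with adjusted p-values of 0.634 or more. These were ENSRNOG00000007457, ENSRNOG00000013668, ENSRNOG00000038960 and ENSRNOG00000033879, the last of which was not among edgeR's 5, while ENSRNOG00000045772 and ENSRNOG00000028896 were at an exact p of 0.0635. A log2 fold change above 1 was reached by 4 of the 9, against 0.295% of genes. ENSRNOG00000045772 and ENSRNOG00000028896, which moved as one, were both among edgeR's 5. Without the libraries labelled sham rats 4 and 5 the log2 fold changes of the 9 were lower, between 0.21 and 1.28 with a median of 0.67, against a median of 0.0003 over all genes. With the 7 libraries that carry FC120 in their column names they were between 0.31 and 1.16 with a median of 0.68.

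In edgeR the smallest hippocampal p of the 9 was that of ENSRNOG00000038960, while DESeq2 and the exact permutation test had theirs at ENSRNOG00000007457. The CPM of ENSRNOG00000038960 were 1.41, 2.04, 3.82, 1.34 and 1.80 in sham rats 1 to 5 and 6.36, 5.58, 1.96, 3.60 and 4.48 for TBI rats 6 to 10. The log2 fold change was 1.04 (SE 0.35), with an unadjusted p of 0.0125 and an adjusted p of 0.505 in edgeR's quasi-likelihood test. The groups overlapped through sham rat 3, which lay above TBI rat 9, and through TBI rat 8, which lay below sham rat 2.

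ENSRNOG00000007457 had 4.24, 5.13, 12.9, 4.43 and 3.65 CPM in the hippocampus of sham rats 1 to 5 and 29.9, 20.6, 5.20, 13.3 and 21.0 CPM in TBI rats 6 to 10. Its log2 fold change was 1.53 (SE 0.53), with an unadjusted p of 0.0192 and an adjusted p of 0.507 in edgeR. Again the library labelled sham rat 3 lay beside TBI rat 9 and that labelled TBI rat 8 beside sham rat 2. ENSRNOG00000024000 had the same libraries above its widest gap, at 1.12, 0.743, 5.40, 0.422 and 1.09 CPM in sham rats 1 to 5 and 6.09, 4.18, 1.63, 4.54 and 3.60 CPM in TBI rats 6 to 10. Only 1 TBI library was above sham rat 3 at that gene, and its log2 fold change was 1.09 (SE 0.64, adjusted p = 0.704 in edgeR).

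ENSRNOG00000033879 had 0 reads in 4 hippocampal sham libraries and 30 reads in the one labelled sham rat 3. In TBI rats 6 to 10 it had 54, 31, 6, 23 and 25 reads, the lowest again being rat 8. With all libraries its log2 fold change was 1.71 (SE 1.03, adjusted p = 0.709 in edgeR). That value rests on the 30 reads of the library labelled sham rat 3, and without it every sham library is at 0 reads and the fitted value of 7.56 depends on the prior count.

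ENSRNOG00000013668 lay between 2.76 and 10.5 CPM in the hippocampus of sham rats and between 5.17 and 12.3 CPM in that of TBI rats (log2 fold change 0.90, SE 0.37). ENSRNOG00000034174 lay between 0.834 and 2.48 CPM in sham and between 0.906 and 2.93 CPM in TBI (0.62, SE 0.33). ENSRNOG00000045772 lay between 19.6 and 38.1 CPM in sham and between 24.6 and 80.4 CPM in TBI (0.81, SE 0.31). Adjusted p-values of these 3 were 0.571, 0.634 and 0.538 in edgeR. ENSRNOG00000016179 differed least, from 0.843 ± 0.235 to 1.15 ± 0.320 CPM (SD, n = 5 each), with a log2 fold change of 0.40 (SE 0.24, adjusted p = 0.692 in edgeR).

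At none of the 9 genes were all hippocampal TBI libraries above all sham libraries, against 0.519% of genes, and the widest gap parted the labelled groups at none, against 0.0059%. At 5 of the 9 (ENSRNOG00000024000, ENSRNOG00000007457, ENSRNOG00000013668, ENSRNOG00000034174 and ENSRNOG00000038960) the widest gap had sham rat 3 and TBI rats 6, 7, 9 and 10 above it and the other 5 libraries below it, a division found at 0.69% of genes. The library labelled sham rat 3 was the highest sham library at 9 of 9, as it was at 31.7% of the genes whose mean was higher in TBI, and the library labelled TBI rat 8 was the lowest TBI library at 8 of 9, against 23.4%.

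The same pair of rats was ordered the other way in the other areas. In the cortex rat 8 was above rat 3 at 8 of 9 genes, by 1.52 to 3.53 on the log2 scale, the exception being ENSRNOG00000016179 at -0.18. In the thalamus it was above rat 3 at 9 of 9, by 1.79 to 4.89. In the hippocampus the difference of rat 8 minus rat 3 was negative at 9 of 9, between -0.26 for ENSRNOG00000016179 and -1.96 for ENSRNOG00000033879. Over all genes tested rat 8 was higher at 48.5%, 50.8% and 50.9% in the cortex, thalamus and hippocampus. The genes were chosen for higher TBI levels in the cortex or thalamus, so the order of these rats there follows from the choice. Nothing is read from these counts against the shares of all genes. What reversed the order in the hippocampus was not tested.

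**Figure D4:**
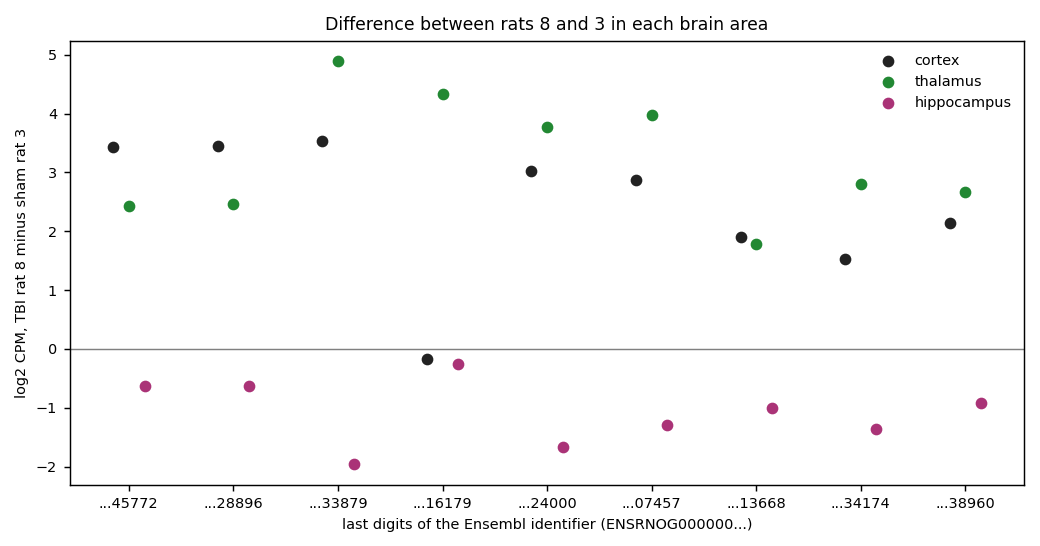
Difference in log2 CPM (prior count 3) between the libraries labelled TBI rat 8 and sham rat 3, per gene and brain area, with the line at 0. Cortical and thalamic differences lie above 0 except for ENSRNOG00000016179 in the cortex, and all 9 hippocampal differences lie below it.

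Hippocampal values without the libraries labelled sham rat 3 and TBI rat 8 are a description. These libraries were left out because of their levels at genes of this kind, so their removal moves the result toward the choice and the calls below test nothing. The log2 fold change was 2.39 (SE 0.25) for ENSRNOG00000024000, 2.27 (SE 0.22) for ENSRNOG00000007457, 1.59 (SE 0.21) for ENSRNOG00000038960, 1.51 (SE 0.16) for ENSRNOG00000013668, 1.23 (SE 0.21) for ENSRNOG00000034174 and 1.11 (SE 0.21) for ENSRNOG00000045772. ENSRNOG00000033879 had 0 reads in the 4 remaining sham libraries and 133 in the 4 TBI libraries, at least 28.2-fold higher against a floor of 3 counts over the sham group, with TMM-scaled library sizes. For ENSRNOG00000016179 it was 0.59 (SE 0.27). Of the 9 genes, 8 were past the threshold of edgeR's quasi-likelihood test (1.45% of 16960 genes) and 8 past that of DESeq2 (2.35%), all but ENSRNOG00000016179. The same 8 had no overlap between the groups (5.28% of genes) and had their widest gap between them (1.26%). With sham rat 3 alone left out, 4 had no overlap (2.72%), and with TBI rat 8 alone left out 3 had none (1.86%). Because the libraries were picked on such values, nothing is read from these counts against their shares.

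Sham-operated rats differed between areas at several genes, given without a test since low sham levels took part in the choice. One fit covered the 15 sham libraries and held no term for the rat, although the same rats gave every area. ENSRNOG00000045772 was 3.63 (SE 0.31) higher on the log2 scale in the thalamus and 3.50 (SE 0.31) higher in the hippocampus than in the cortex, and thalamus and hippocampus differed by 0.13 (SE 0.26). ENSRNOG00000034174 was also lowest in the cortex, by 1.74 (SE 0.28) and 1.06 (SE 0.30). ENSRNOG00000013668 was highest in the thalamus, by 1.25 (SE 0.26) over the cortex, with a hippocampus minus cortex difference of -0.04 (SE 0.27) that was -0.51 (SE 0.20) without sham rat 3. ENSRNOG00000038960 was lowest in the thalamus, at -1.55 (SE 0.27) against the cortex, and ENSRNOG00000016179 was lowest there too, at -0.92 (SE 0.33) against the cortex and -1.91 (SE 0.31) against the hippocampus. ENSRNOG00000007457 had a thalamus minus cortex difference of -0.81 (SE 0.39), which was -1.35 (SE 0.33) without sham rat 1, its highest thalamic sham library, and -0.54 (SE 0.43) without sham rat 2. Its thalamus minus hippocampus difference was -0.43 (SE 0.39) and lay between -0.96 (without rat 1) and 0.10 (without rat 3). The value of ENSRNOG00000024000 depended on the library labelled sham rat 3, since hippocampus minus cortex was 1.59 (SE 0.53) with it and 0.46 (SE 0.38) with that rat left out. With all libraries and the rat as a block, that difference was 1.25 (SE 0.48).

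Set in order over the 6 combinations of area and operation, with all 30 libraries scaled together, ENSRNOG00000045772 ran from 134 ± 68.2 CPM in the TBI thalamus through 81.9 ± 34.8 in the TBI cortex, 57.1 ± 23.5 in the TBI hippocampus, 35.8 ± 9.04 in the sham thalamus and 32.3 ± 7.52 in the sham hippocampus to 2.84 ± 1.64 in the sham cortex (SD, n = 5 each). Neighbours in that order overlapped in their ranges except the last pair. For ENSRNOG00000016179 the TBI thalamus led at 4.31 ± 3.17 CPM and the sham thalamus was last at 0.258 ± 0.0958 CPM (SD, n = 5 each), so that both ends of its order lay in one area.

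Across the 30 libraries, after the mean of each area was subtracted from log2 CPM, the genes varied together to different degrees. These correlations share rats, libraries and the injury on which the genes were chosen, so they are a description. ENSRNOG00000024000 and ENSRNOG00000007457 had a Pearson r of 0.958, and ENSRNOG00000007457 and ENSRNOG00000038960 one of 0.944. Between ENSRNOG00000045772 or ENSRNOG00000028896 and the other genes except ENSRNOG00000016179, r was between 0.756 and 0.855. Between ENSRNOG00000016179 and the others r was between 0.382 and 0.709. Of the 16003 other genes tested in all 3 areas, those with r above 0.9 numbered 172 for ENSRNOG00000007457, 105 for ENSRNOG00000013668, 91 for ENSRNOG00000024000, 84 for ENSRNOG00000038960, 79 for ENSRNOG00000034174, 39 for ENSRNOG00000045772 and 0 for ENSRNOG00000016179. The most alike gene outside the 9 had r between 0.863 for ENSRNOG00000016179 and 0.977 for ENSRNOG00000007457. ENSRNOG00000033879 was left out of this comparison, as it was not fitted in the thalamus.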

How the data were processed

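The authors aligned reads to the RN5 (Rnor_5.0) genome with STAR and deposited raw counts per Ensembl gene, as 1 table for each area. The counting tool and its use of strand are not given in the sources used here. By the study's methods 2 hippocampal control libraries were set aside for low alignment without being named, and all 30 deposited columns were used here (0 columns went unused). Treatment, area and rat came from the labels. Replicates are separate rats.

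Counts were analysed in R 4.3.3 with DESeq2 1.42.0, limma 3.58.1 and edgeR 4.0.16. In each area, genes were kept by filterByExpr (minimum count 10, minimum total 15), scaled by TMM and fitted by the robust quasi-likelihood method, with Benjamini-Hochberg adjustment over all genes tested and 0.05 as the threshold. A prior count of 3 was added for log2 CPM. Overlap and gaps between libraries were read from log2 CPM. The fit was also run on simulated hippocampal counts. These held no library that stood apart, unlike the measured ones, so that run does not vouch for the hippocampal result.

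The 9 genes, the lists and the libraries that were doubted were chosen with earlier results of these data known. The genes to be named were the 9, and the genes most like each were given only by their correlation because the identifiers could not be paired with names here. The reference table of names, of assembly GRCr8, holds 0 Ensembl identifiers, so lists of cell type markers and pathways were not run. Alternatives were DESeq2, RLE size factors, no filter, a prior count of 1, an exact permutation test, each rat left out, sham rat 3 and TBI rat 8 left out, sham rats 4 and 5 left out, and the rat as a block between areas. DESeq2 without rats 3 and 8, the gaps without them, and the hippocampal libraries with FC120 in their column names were added after seeing the data. The same rats gave every area, so the rat pairs libraries between areas.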

Additional observations from a re-analysis of the deposited data

Results flagged for a closer look

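Of the 54 groups of 5 libraries (9 genes, 3 areas, sham and TBI) checked for a library far from the others, 7 had one whose gap to its nearest neighbour, as a share of the group's range, was above the critical value of 0.71. Chance alone gives about 5% of such groups, and the groups share rats and genes.

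In the thalamus the library of TBI rat 6 was far below the other TBI libraries at ENSRNOG00000024000 (0.840 of the range) and ENSRNOG00000007457 (0.780). Sham rat 2 was far below the other sham libraries at ENSRNOG00000024000 (0.750). In the hippocampus the library labelled sham rat 3 was far above the other sham libraries at ENSRNOG00000033879 (1, all of the range), ENSRNOG00000034174 (0.762) and ENSRNOG00000007457 (0.733). At ENSRNOG00000033879 the other 4 sham libraries held 0 reads, so any reads in the remaining library give 1. The library labelled TBI rat 8 was far below the other TBI libraries at ENSRNOG00000013668 (0.747).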

How the results depend on the processing

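In the cortex and thalamus the TBI minus sham differences of the genes fitted kept their side of 0, or for ENSRNOG00000016179 in the cortex stayed between -0.12 and 0.15 on the log2 scale, under DESeq2, RLE size factors, no filter and with each rat left out. In the hippocampus 0 of the 9 genes passed the threshold under these settings, without sham rats 4 and 5, and with the FC120 libraries alone. These last settings lowered hippocampal log2 fold changes, for ENSRNOG00000013668 from 0.90 to 0.61 and 0.53, for ENSRNOG00000034174 from 0.62 to 0.49 and 0.37, for ENSRNOG00000033879 from 1.71 to 1.25 and 1.09, for ENSRNOG00000024000 from 1.09 to 0.72 and 0.78, and for ENSRNOG00000016179 from 0.40 to 0.21 and 0.31. Without sham rat 3 and TBI rat 8, 8 passed by edgeR (1.45% of genes) and 8 by DESeq2 (2.35%). In that setting 8 had all TBI above all sham libraries (5.28%), and 8 had their widest gap between the groups (1.26%). These counts test nothing, as both libraries were left out for their values at such genes. With 1 rat left out the number of genes with all TBI libraries above all sham libraries in the hippocampus was between 0 and 4, with 4 without sham rat 3 and 3 without TBI rat 8, against 2.72% and 1.86% of genes. The cause was not tested.

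Between areas in sham rats, the thalamus minus hippocampus difference of ENSRNOG00000024000 changed from -1.06 to 0.0016 without rat 3 (range -1.37 to 0.0016 with each rat left out). ENSRNOG00000034174 moved from 1.06 to 0.61 (hippocampus minus cortex) and from 0.68 to 1.2 (thalamus minus hippocampus) without that rat. With the rat as a block (pairing by rat), the genes higher in thalamus than cortex, hippocampus than cortex and thalamus than hippocampus numbered 5, 5 and 4 of the 8 fitted, as without it, against 50.5%, 50.5% and 48.9% of all genes. TBI and sham are different rats, so no pairing was possible there. Genes under 1 CPM rest on few reads. What the identifiers encode, the reads that other identifiers share and the cell types in the tissue were not analysed here.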
